A study of Solanum lycopersicum with 36 samples.

Results

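The comparison set leaves of untransformed tomato at the 24 h time point against leaves at the 3 h time point, in the wild type plants that were grown beside the line SGT2ox. Members were all genes that reached a normalised read count of 10 or more in at least 3 of the 6 libraries concerned, which gave 21345 genes of the 29285 in the table. The plants were Micro-Tom, a dwarf laboratory cultivar of Solanum lycopersicum that carries a defect in brassinosteroid synthesis. Poly(A) RNA came from the third and the fourth leaf of plants about a month old, with 3 libraries labelled biologically independent in each group, and no transgene is named for them. The series holds 36 libraries in 12 groups of 3, from the line SGT2ox with its wild type and the line SGT1ami with another wild type, each at 0, 3 and 24 h, and both experiments were run independently. SGT1 and SGT2 are sterol glycosyltransferases, enzymes that attach sugar to membrane sterols, and the series deals with their part in tolerance of cold.

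Tomato comes from warm habitats and is injured by chilling. Leaves moved to the cold are known to switch on transcription factors within hours and then, over a day or more, genes for protective proteins, sugars and membrane lipids, while growth and photosynthesis genes are turned down. Leaf transcripts also follow the circadian clock and the light period, so the hour of harvest matters as well. The labels of these libraries give a time but neither a temperature nor an hour of the day, and cold and control plants were both sampled. Length of treatment, hour of day and temperature therefore cannot be told apart in a change from 3 h to 24 h.

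Gene identifiers come without names in the files, and 0 of the 29285 matched the reference gene table, so genes are given by identifier without a function. For the same reason the leaf label could not be checked against marker genes, nor the line SGT2ox against its targeted gene. The 6 libraries held 36602841 to 39094748 recovered reads and 23683 to 24220 genes with at least 1 read. Among genes with a mean of at least 100, the median coefficient of variation between replicates was 5.52% at 3 h and 5.11% at 24 h. Each of the 6 replicate pairs differed beyond sampling noise, with a chi-square that averaged 3.2 to 4.86 over genes (1.6 to 2.43 when mates are taken as counted jointly), so all libraries were kept. RNA came from whole leaves, where fewer cells of a type and less RNA per cell cannot be told apart.

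Most leaf genes differed between the 2 time points. Of the 21345 genes, 17445 (81.7%) passed an adjusted p of 0.05 in limma, 8520 of them higher at 24 h (39.9%) and 8925 lower (41.8%). At least 2-fold higher were 4472 genes (21%) and at least 2-fold lower 4375 (20.5%). Large rises outnumbered large falls, by a ratio that grew with the size of the change. At 4-fold there were 2264 higher (10.6%) against 1578 lower (7.39%), at 16-fold 588 against 196, and at 64-fold 188 against 17. At the other end, 4778 of the called genes moved by less than 1.5-fold, and the smallest change called was 0.08 on the log2 scale. The median absolute log2 fold change was 0.80 over all genes and 1.02 among called genes, beside a median SE of 0.094. These values are on the log2(value + 1) scale, which understates the change of low genes.

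The balance of rises and falls depended on the scaling. The deposited values carry size factors that hold the median gene near no change (-0.04). When values were divided by library totals instead, the median gene stood at 0.17, and the calls split into 10092 higher and 7323 lower.

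Among genes with a mean of at least 10 at both times and 50 over the 6 libraries, Solyc08g075550 on chromosome 8 had the largest rise. It stood at 9.67, 9.33 and 14.8 normalised reads in the 3 libraries of 3 h and at 11107, 11052 and 12279 in those of 24 h. The groups lay about 3 orders of magnitude apart and each was tight, with means of 11.3 ± 3.07 and 11479 ± 693 (SD, n = 3). The log2 fold change was 9.90 (SE 0.19, adjusted p = 9.8e-26, limma). At 0 h the same wild type held 16.2, 18.6 and 21.4, a little above every library of 3 h.

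Solyc02g061770 on chromosome 2 behaved alike. Its values were 19.3, 23.3 and 19.7 in the 3 h libraries, against 15740, 16853 and 15523 in those of 24 h. That is a log2 fold change of 9.53 (SE 0.34, adjusted p = 1.2e-19, limma), with 24.7 ± 7.56 at 0 h. In both genes every library of 24 h lay far above every library of 0 h and 3 h.

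The largest falls within the same limits had another course. Solyc09g011080 on chromosome 9 stood at 89961, 87972 and 90568 at 3 h, where it was number 67 of all genes by reads, and at 623, 712 and 600 at 24 h. The log2 fold change was -7.12 (SE 0.057, adjusted p = 2e-33, limma). At 0 h it had stood at 1476 ± 103, so that the 3 h libraries alone were high and the 24 h libraries were the lowest of the 3 times.

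Solyc03g025710 on chromosome 3 showed the same peak at a lower level. It went from 4591, 4645 and 4712 at 3 h to 63.3, 51.1 and 54.1 at 24 h. By limma this was -6.35 on the log2 scale (SE 0.13, adjusted p = 2.5e-25). Its 0 h libraries held 66.5 ± 9.27, close to those of 24 h. The fall from 3 h to 24 h in these genes thus ended near or below the level of 0 h. No group of 3 h overlapped its group of 24 h in any of the 4 genes, which follows largely from choosing them for large changes.

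**Figure D1:**
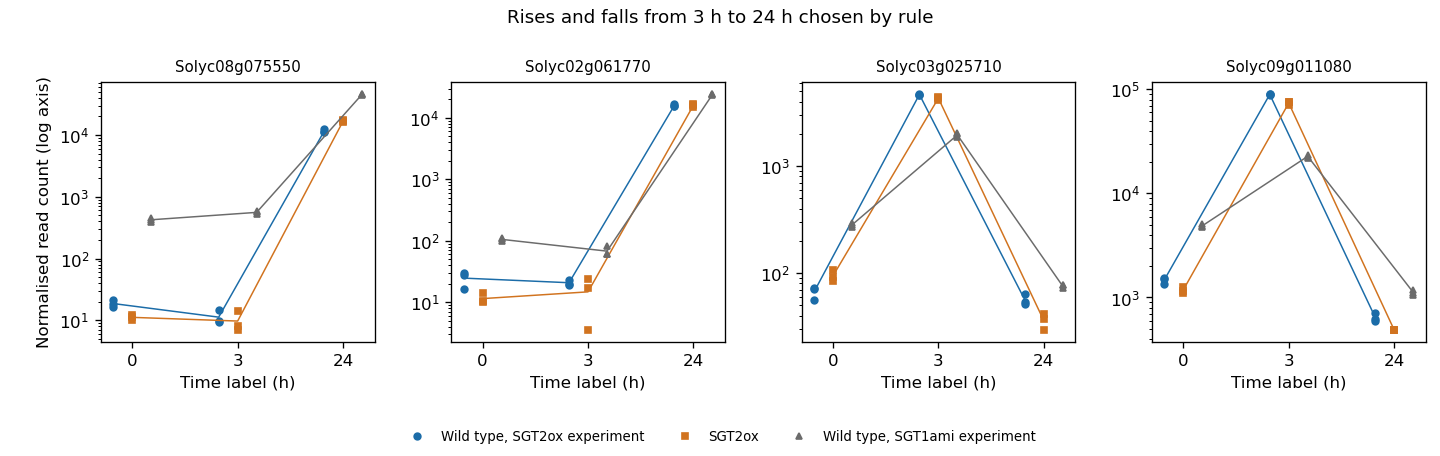
Normalised read counts (log axis) of the 2 largest rises and the 2 largest falls named by rule, at the time labels 0, 3 and 24 h; each point is a library, and lines join the means of 3 libraries. In the wild type of SGT2ox the rises are low at 0 h and 3 h and reach means of 11479 and 16039 at 24 h, while the falls peak at 3 h with means of 4649 and 89500.

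Change was spread over all levels of expression, but its direction was not. Among the 597 genes with a mean of 10000 or more over the 6 libraries, 96.8% were called, 219 of them at least 2-fold lower (36.7%) and 158 at least 2-fold higher (26.5%), and the median log2 fold change was -0.46. In the class of 1000 to 10000 the order was the other way, with 1429 genes at least 2-fold higher (21.2%) and 1033 lower (15.3%) of 6742. Genes of 100 to 1000 held 1639 rises and 1822 falls of that size among 9141, and genes under 100 held 1246 and 1301 among 4865. The share called dropped to 66.1% in the lowest class, where the median SE was 0.33 against 0.041 in the highest.

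**Figure D2:**
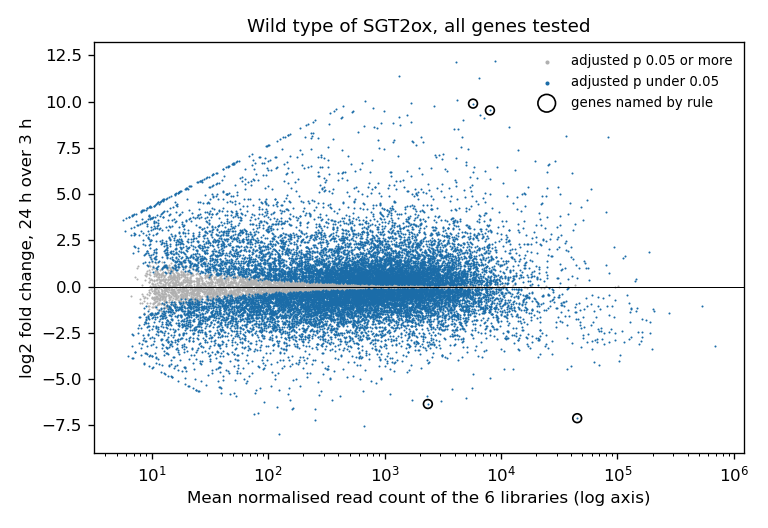
The log2 fold change from 3 h to 24 h of all 21345 genes against their mean normalised read count over the 6 libraries (log axis), with genes past an adjusted p of 0.05 in blue, the others in grey and the 4 genes named by rule circled. Large rises reach further from 0 than large falls, and the most abundant genes at the right lie mostly below 0.

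Reads were concentrated in far fewer genes at 3 h than at 24 h. The 100 most abundant genes of each library held 33.2%, 33% and 33.7% of the reads at 3 h and 19.5%, 19.7% and 19.5% at 24 h. To reach 50% of the reads took 430, 434 and 412 genes at 3 h and 979, 965 and 974 at 24 h. The groups did not overlap (exact permutation p = 0.1, two-sided, the smallest that 3 libraries against 3 allow). Between the times 39.9% of the reads moved from some genes to others. Of the reads lost, 50% came from 64 genes, while 363 genes took up 50% of the reads gained.

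The 100 genes most abundant at 3 h shared 40 members with the 100 most abundant at 24 h. Those of 3 h fell from 33.3% to 12.9% of the reads, and 92 of them were called lower and 6 higher, at least 2-fold in 81 and 3. Those of 24 h held 19.8% of the reads at 3 h and 19.6% at 24 h, with 65 called higher and 32 lower. A list picked for high levels at a time tends to be higher at that time, so these counts describe the lists and are not a test.

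The gene with the largest loss of reads was Solyc10g086580 on chromosome 10, named here after its values were seen. It alone held 2.7%, 2.69% and 2.69% of all reads at 3 h, more than any other gene, and 0.332%, 0.33% and 0.333% at 24 h. Its log2 fold change was -3.23 (SE 0.05, adjusted p = 8.3e-28, limma), and at 0 h it had held 0.829%. The largest gain, chosen the same way, was that of Solyc00g500063, an identifier not assigned to a chromosome. It rose from 0.176%, 0.18% and 0.173% to 0.744%, 0.761% and 0.73% of the reads and became the second most abundant gene (log2 fold change 1.86, SE 0.077, adjusted p = 3.3e-18, limma), from 0.00402% at 0 h. In both genes the libraries of a group lay close together and the times did not overlap. Genes chosen for the largest loss and gain would be apart by that choice, so this describes them and is not a test.

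**Figure D3:**
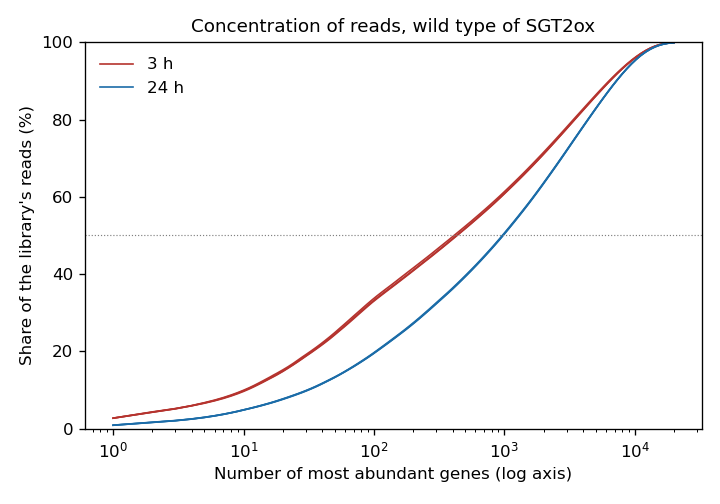
Share of a library's reads (%) held by its most abundant genes, against the number of genes counted (log axis), with a line for each of 3 libraries of 3 h (red) and 3 of 24 h (blue); the dotted line marks 50%. The lines of a time lie on each other, and the 3 h lines reach 50% with 412 to 434 genes where the 24 h lines need 965 to 979.

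Some genes were at 0 at a time and present at the other. In 117 genes all 3 libraries of 3 h had no read and all 3 of 24 h stood at 10 or more, and in 25 genes it was the reverse, together 0.665% of the genes tested. The first set reached a median of 40.1 normalised reads at 24 h and at most 2683, and the second a median of 29.1 at 3 h and at most 249.7. A count of 0 in a library allows up to 3 reads, which correspond to 3.61 normalised reads at 3 h and 3.2 at 24 h (counting error only), so these genes were not detectable rather than absent. Of the 117 genes, 41 were also at 0 in all 3 libraries of 0 h and 5 stood at 10 or more in all 3. In 1163 members all 3 libraries of 24 h but not all 3 of 3 h reached 10, and in 918 it was the reverse. A further 230 members reached 10 in all 3 libraries of neither time. Genes let in mainly by the libraries of a time tend to be higher at that time by the filter itself. At the edge of the filter, 127 members had a third-highest value of 10 to 11 (lowest 10.42) and 174 genes left out one of 9 to 10 (highest 9.87).

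Every chromosome took part, by the chromosome number that tomato identifiers carry. The share called ranged from 79.5% on chromosome 11 to 84.2% on chromosome 5. Rises of at least 2-fold made up 17.6% (chromosome 11) to 23.9% (chromosome 2) and falls 18.8% (chromosomes 9 and 11) to 25% (chromosome 10). On chromosome 10 falls outnumbered rises, 354 against 269, and the median log2 fold change was -0.18, the lowest of the 12 chromosomes, while on chromosome 2 rises led with 552 against 454. The 81 members without a chromosome, 77 of them of the Solyc00g500 series, stood apart. Of these 20 were called (24.7%), all higher, and 60 had a positive change (median log2 fold change 0.51). Their median SE was 0.43 against 0.094 over all genes, and together they took 0.201% to 0.21% of the reads at 3 h and 0.81% to 0.843% at 24 h, most of it from Solyc00g500063. In the other wild type the median change of the same 81 genes was 0.06, and in SGT2ox it was 0.79.

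Did other plants show the same change? The libraries of the SGT1ami experiment had no part in choosing the genes. Those of SGT2ox gave no value to the fold changes, but shared the fit that set the spread and so bore on which genes were called. In the wild type of the SGT1ami experiment, 3463 of the 4472 genes that rose at least 2-fold (77.4%) were at least 2-fold higher at 24 h by the means, against 4743 of all 21345 genes (22.2%). Of the rest, 32 were at least 2-fold lower, and 221 were lower by any amount. Of the 4375 falling genes, 3011 (68.8%) were at least 2-fold lower, against 4178 of all genes (19.6%), while 41 were at least 2-fold higher and 230 higher by any amount. Median log2 changes there were 1.79 for the rising and -1.48 for the falling genes, beside 0.03 for all genes. In SGT2ox, whose plants shared the experiment, 4049 of the rising genes (90.5%) were at least 2-fold higher, against 4850 of all genes (22.7%). There 3800 of the falling genes (86.9%) were at least 2-fold lower, against 4610 (21.6%), and the medians were 2.15 and -1.71 beside -0.03 for all genes.

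Across the 20823 genes tested in both wild types, the changes had a Pearson's r of 0.86 and a Spearman's rho of 0.83, where genes do not count as independent replicates. With SGT2ox it was 0.95 and 0.94 over 21039 genes. Points share a library size factor within each library, and no library was common to both axes. At least 2-fold and called in both wild types were 3393 rises and 2904 falls. Among the genes tested in both, the shared rises were 78.4% of those here and 73.2% of those there, and the shared falls 68.9% and 72.2%.

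The earlier course of these genes can be read in the same libraries of the other wild type and of SGT2ox. From 0 h to 3 h the genes that rose here had a median log2 change of -0.05 in the other wild type and -0.37 in SGT2ox, and the genes that fell here 0.19 and 0.39, beside -0.02 and 0.01 over all genes. With library totals all genes moved to -0.24 and -0.32, and the falling genes then stood at -0.03 and 0.05, still above all genes. From 0 h to 24 h the rising genes stood at 1.81 and 1.73 and the falling genes at -1.26 and -1.32, beside 0.03 and 0 over all genes. By these medians, then, the rises in both sets of plants lay mainly after 3 h. The falling genes had first been slightly higher at 3 h than all genes were. Genes chosen for a change from 3 h to 24 h tend to show this course, so the medians are not a test. From 0 h to 3 h, 16.3% of the rising genes went up at least 2-fold in the other wild type and 12.4% went down. Over all genes it was 11% and 5.85%. In SGT2ox the shares were 8.3% and 28.9%, beside 11.6% and 10.8% over all genes. These contrasts share the libraries of 0, 3 and 24 h among themselves.

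The genes named by rule for the largest rises and falls moved in the same direction in the other plants, with different sizes. Solyc02g061770 had a log2 fold change of 8.45 in the other wild type and 10.31 in SGT2ox, and Solyc03g025710 of -4.67 and -6.87. Solyc09g011080 went from 22735 ± 685 at 3 h to 1122 ± 63 at 24 h in the other wild type and from 73928 ± 2940 to 488 ± 2.67 in SGT2ox (SD, n = 3). The fall was larger in the wild type of SGT2ox than in the other (difference of log2 changes -2.78, SE 0.085, adjusted p = 6.9e-28, limma). Its difference from SGT2ox did not pass the test (-0.12, SE 0.08, adjusted p = 0.29, limma). Solyc08g075550 rose from 559.3 ± 29.9 to 45495 ± 676 in the other wild type, so its level there was higher at both times, and the rise here was larger by 3.55 (SE 0.19, adjusted p = 6.7e-20, limma). The gain of Solyc00g500063 was not repeated in the other wild type, where it held 0.155%, 0.162% and 0.157% of the reads at 3 h and 0.144%, 0.145% and 0.142% at 24 h. Its log2 change on normalised values was 0.27 there against 1.86 here (difference 1.60, SE 0.089, adjusted p = 4.4e-19, limma). In SGT2ox it went from 0.102% to 0.498% of the reads. All these genes were chosen for large changes here. That choice favours a larger change here than in other plants, so the direction of these differences was favoured in advance.

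The size of the change differed between the wild types in more than 50% of genes. By a test of the difference itself, 12612 of 22103 genes (57.1%) had another change from 3 h to 24 h in the wild type of SGT2ox than in that of SGT1ami, 5503 more positive (24.9%) and 7109 more negative (32.2%) in the former (limma, adjusted p under 0.05). The difference was at least 2-fold in 1915 genes more positive (8.66%) and 1965 more negative (8.89%). This split rests on the scaling: the median difference was -0.08 with the deposited values and 0.53 with library totals, where the calls became 13314 more positive and 1937 more negative. Opposite changes of at least 2-fold, with the difference called, were few: 24 genes rose here and fell there, and 35 fell here and rose there. Each wild type set comes from its own experiment, so wild type set and experiment cannot be told apart.

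**Figure D4:**
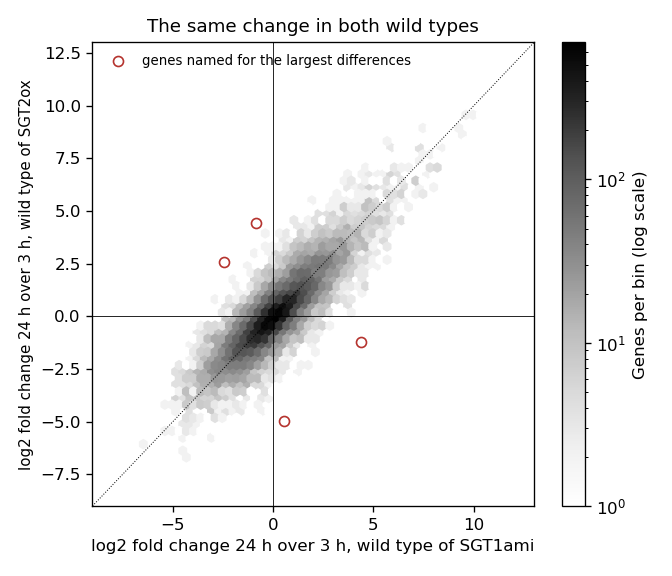
The log2 fold change from 3 h to 24 h of 20823 genes in the wild type of SGT2ox (vertical) against that in the wild type of SGT1ami (horizontal), shaded by the number of genes per bin, with the 4 genes named for the largest differences circled in red and equal change dotted. Most genes lie along the dotted line (Pearson's r 0.86), and the circled genes have changes of opposite sign.

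Among genes with a mean of at least 10 in all 4 groups, those with the largest differences changed in opposite directions. Solyc04g082120 on chromosome 4 stood at 15836, 15433 and 15069 at 3 h and at 500.3, 473 and 508 at 24 h here. In the other wild type it held 275, 284 and 269 at 3 h and 416, 373 and 432 at 24 h. Libraries of 3 h here were thus far above all others of the wild types, and the difference of changes was -5.52 (SE 0.087, adjusted p = 1.8e-37, limma). SGT2ox, from the same experiment, fell as well, from 6269 ± 195 at 3 h to 635 ± 38.1 at 24 h.

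Solyc06g067980 on chromosome 6 fell here from 933, 1020 and 959 to 428, 406 and 422, and rose there from 109, 134 and 120.4 to 2561, 2509 and 2474 (difference -5.58, SE 0.31, adjusted p = 4.6e-19, limma). In SGT2ox it rose as well, from 816.5 ± 33.8 to 1753 ± 53.9, so the wild type of SGT2ox alone fell among the 3 sets of plants.

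More positive here was Solyc08g067340 on chromosome 8, at 84.6, 79.3 and 59.2 at 3 h and 1782, 1470 and 1576 at 24 h. In the other wild type it stood at 1428, 1504 and 1458 and then at 880, 768 and 787 (difference 5.28, SE 0.25, adjusted p = 3.2e-21, limma). The levels of 24 h here were near those of 3 h there.

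Solyc08g008480, also on chromosome 8, rose here from 69.7 ± 20.8 to 414.4 ± 37.5 and fell there from 151.9 ± 12.8 to 27.8 ± 9.37 (difference 5.05, SE 0.43, adjusted p = 1.7e-13, limma). All 4 differences kept their direction and passed the test under every alternative tried, library totals included. As they were chosen for their size, this says little about other genes.

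**Figure D5:**
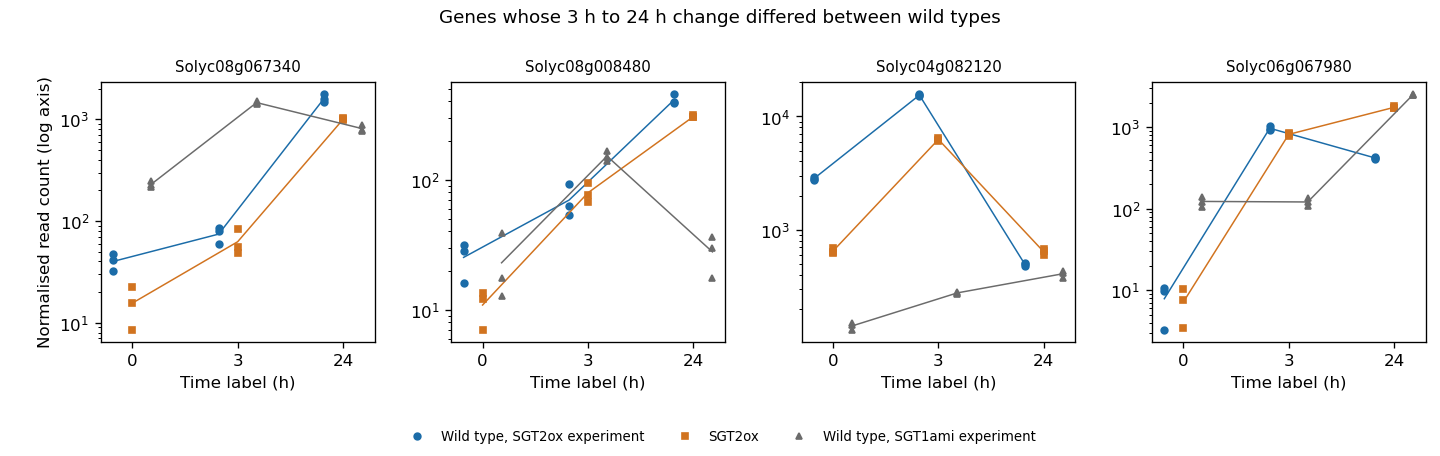
Normalised read counts (log axis) of the 4 genes with the largest differences of change between the wild types, at 0, 3 and 24 h; each point is a library, and lines join the means of 3. Between 3 h and 24 h the wild type of SGT2ox (blue) and that of SGT1ami (grey) move in opposite directions in each panel.

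SGT2ox stayed closer to its own wild type. The change from 3 h to 24 h differed between them for 5706 of 22047 genes (25.9%), 2975 more positive in the line (13.5%) and 2731 more negative (12.4%). Differences of at least 2-fold numbered 679 (3.08%) and 430 (1.95%), and the median absolute difference among called genes was 0.49, against 0.67 between the wild types. With library totals the split turned to 2176 more positive and 3968 more negative, with a median of -0.07 against 0.01. The line and the wild type were grown in the same experiment, whereas both wild types were not, and counts from these fits of 18 and of 36 libraries were not tested against each other.

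By the same limits, 4 genes had the largest differences between the wild type and the line. Solyc02g005340 fell in the wild type from 233, 287 and 229.6 to 32.2, 31.3 and 36.8, while SGT2ox held 18.5, 16.4 and 18.8 at the earlier time and 34, 39.3 and 51 at the later. The wild type was high at 3 h and near the line at 24 h (difference 4.01, SE 0.3, adjusted p = 8.7e-11, limma). Solyc01g103850 rose in the wild type from 42.3, 21 and 32.1 to 184, 157 and 182, and went from 323 ± 17.7 to 184 ± 18.1 in SGT2ox (difference -3.28, SE 0.23, adjusted p = 4.8e-11, limma).

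Solyc04g008100 rose in both, from 58.6 ± 9.16 to 1787 ± 69.8 in the wild type and from 10.1 ± 9.8 to 2436 ± 109 in SGT2ox (difference 3.27, SE 0.5, adjusted p = 1.5e-05, limma). Solyc06g062560 rose from 11.3 ± 4.81 to 186 ± 27.1 in the wild type and stood at 25.7 ± 5.99 and 37.8 ± 4.11 in SGT2ox (difference -3.44, SE 0.56, adjusted p = 3.9e-05, limma). In both of these genes a group of 3 h had a mean near 10 normalised reads, and the SE was larger than for the others.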

How the data were processed

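The deposited table gives a signal that the authors made from gene counts, by dividing each library by a size factor. This was read from the values, since dividing each library by the worth of 1 read gave whole numbers in 100% of cases (within 0.01 reads). The tools are Trimmomatic, STAR, featureCounts and DESeq2, per the submitters' processing notes, while versions, roles, genome build, annotation and strand setting were not given in the sources used here. Overlapping genes and near-identical copies may therefore share reads. Even numbers made up 78.8% of the low values (2 to 11 reads). Counting every fragment as a pair would give 100%, and counting reads singly would give about as many odd as even numbers. How mates were counted was not tested. Reads may not be independent molecules, and floors cover counting error only.

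Log2(value + 1) was tested in limma 3.58.1 (R 4.3.3, trended variance prior), two-sided, with Benjamini-Hochberg adjustment over all genes of a comparison and a threshold of 0.05. The comparison of 24 h with 3 h and the difference from SGT2ox were fitted on the 18 libraries of the SGT2ox experiment (6 groups, 12 residual degrees of freedom), and the difference between wild types on all 36 (24 degrees). A gene was tested where 3 or more libraries of the groups compared reached 10. Levels are means ± SD of 3 libraries. Same-numbered libraries of 3 h and 24 h did not deviate together (correlations of -0.04, 0.01 and 0), so the numbers were not taken as pairs. P-values measure only the spread between these libraries.

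Named genes were called, had a mean of at least 50 over the libraries compared and at least 10 in every group, moved the same way in all 3 same-numbered sets of libraries, and were the 2 highest and 2 lowest by log2 change in each comparison. The comparison, lists and rules were chosen with earlier results of these data known. Alternatives were TMM scaling, library totals, pseudocounts of 0.5 and 5, no filter, a filter at 50, a replicate block, fitting only the groups compared, leaving out each library, and edgeR 4.0.16 and DESeq2 1.42.0 on the recovered reads. The test was checked on simulated data in which few genes changed, so the check does not cover changes as widespread as those here.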

Additional observations from a re-analysis of the deposited data

Results flagged for a closer look

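The change from 3 h to 24 h was not the same in the wild types of both experiments, by the test of the difference itself, in 12612 genes (limma, adjusted p under 0.05). The largest differences named by rule were 5.28 for Solyc08g067340, 5.05 for Solyc08g008480, -5.52 for Solyc04g082120 and -5.58 for Solyc06g067980 on the log2 scale, each with opposite directions in the wild types.

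Between SGT2ox and its wild type the change differed in 5706 of 22047 genes (25.9%) by the same kind of test, and the split by direction again rested on the scaling. Values for the genes named by rule were 4.01 for Solyc02g005340, 3.27 for Solyc04g008100, -3.28 for Solyc01g103850 and -3.44 for Solyc06g062560.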

How the results depend on the processing

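Counts of genes called in the wild type comparison ranged from 15880 (filter at 50) to 18527 (no filter) over all alternatives except those that left out a library, where they ranged from 16975 to 17066. edgeR on recovered reads called 17481 genes and DESeq2 17418. With the replicate block 17419 genes were called, 12590 for the difference between wild types and 5636 for that from SGT2ox, and the block changed no call of a named gene. All 240 values of the named genes under alternatives kept their direction and stayed past the threshold. These genes were chosen as the largest called changes and the alternatives reuse the same libraries, so this says little about other genes.

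Only library totals moved a count by more than 1.5 times: for the difference between wild types the calls became 13314 more positive and 1937 more negative, and at least 2-fold 5234 and 762. The cause was not tested.

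Medians in the other wild type and in SGT2ox moved by more than the spread between replicates under both alternatives. With genes at least 4-fold apart, the rising genes had 2.69 (24 h over 3 h), 0.00 (3 h over 0 h) and 2.90 (24 h over 0 h) in the other wild type and 3.22, -0.52 and 2.77 in SGT2ox. The falling genes had -2.29, 0.39 and -1.88, and -2.74, 0.69 and -2.01. With library totals the rising genes had 1.40, -0.27 and 1.19, and 2.28, -0.69 and 1.52, and the falling genes -1.86, -0.03 and -1.87, and -1.58, 0.05 and -1.52. A stricter choice gives larger medians by construction. The share called was lowest under 100 normalised reads (66.1%), where the median SE was largest (0.33), and the part of depth in this was not tested.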

Other observations

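Strong changes lay next to each other along the chromosomes, if the order of tomato identifiers is taken as the order of genes. Of the genes at least 4-fold higher, 21% were followed by another such gene among those tested (475 of 2262), where 10.6% of all genes were in that class, and 5.22% were followed by a gene at least 4-fold lower, where 7.39% were. Of the genes at least 4-fold lower, 17.2% were followed by another of the kind (271 of 1576). Runs of 3 or more held 271 rising genes in 82 runs and 167 falling genes in 46 runs. The longest rising run had 7 genes on chromosome 9 and the longest falling run 9 genes on chromosome 1. In the longest rising run, 3 genes had no read in any library of 3 h, and the highest reached 13279 normalised reads at 24 h, from 21.1. In the other wild type 92.6% of the rising and 92.8% of the falling genes in runs were at least 2-fold changed by the means in the same direction, against 89.7% and 86% of the 4-fold genes outside runs. Near-identical copies among neighbours were not tested.

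Concentration of reads took different courses in the sets of plants. In the wild type of SGT1ami 820 to 842 genes held 50% of the reads at 3 h and 767 to 775 at 24 h, the reverse of the order in the wild type of SGT2ox. SGT2ox needed 451 to 491 genes at 3 h and 971 to 978 at 24 h, much as its own wild type did. The 100 most abundant genes held 25% ± 0.252 and 20.9% ± 0.0577 of the reads at 3 h and 24 h in the wild type of SGT1ami (SD, n = 3), so by that measure reads were more concentrated at 3 h there too. In these 3 sets of plants the libraries of 3 h and 24 h did not overlap in either measure (exact permutation p = 0.1 each, two-sided, the smallest possible). SGT1ami was not tested, and its ranges of genes holding 50% of the reads, 825 to 859 at 3 h and 824 to 830 at 24 h, overlapped.

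Genes at 0 in a group repeated that exact pattern only in part. Of the 117 genes without a read at 3 h and at 10 or more at 24 h, 33 showed that pattern in the wild type of SGT1ami (28.2% of these and 41.2% of the 80 there) and 67 in SGT2ox (57.3%, and 45.9% of the 146 there). Of the 25 genes with the reverse pattern, 2 (8%) and 5 (20%) did. The rule is strict, as a read in any library of the lower group fails a gene. In the longest rising run, the genes at 0 at 3 h here all failed it in the wild type of SGT1ami. They rose there all the same, Solyc09g011520 from 6.12 to 2316 normalised reads. How many other genes changed in the same direction without meeting the rule was not tested.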
